A study of Mus musculus with 8 samples.

Results

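The beta cell transcription factors described here are 9 genes, Pdx1, Mafa, Nkx6-1, Nkx2-2, Neurod1, Pax6, Isl1, Foxa2 and Hnf4a, of 22911 genes that the array's probes name. They were chosen by symbol, and a probe was given its gene through its RefSeq accession. Islets of 11-week-old mice were collected from 2 genotypes, with 4 RNA extractions of 150 islets each per genotype. Control mice carried the floxed Fbln5 allele, and βFbln5KO mice carried it together with a Cre transgene under the insulin 1 promoter of the mouse, which is active in beta cells. Fbln5 encodes fibulin-5, a secreted protein of the extracellular matrix, and the comparison asks which islet transcripts differ when beta cells lose it. All mice were male littermates. Controls are labelled only as floxed, so that Cre itself and the loss of Fbln5 cannot be told apart, and how many mice were pooled per extraction is not given in the sources used here.

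Beta cells keep their identity through a small set of DNA-binding proteins that act on each other's genes and together on the insulin genes. Pdx1 binds the A boxes of the insulin promoter, Neurod1 binds its E box as a partner of the ubiquitous factor Tcf3, and Mafa binds a further element and marks mature beta cells. Nkx6-1 and Nkx2-2 hold back the genes of other islet cell types. Pax6, Isl1 and Foxa2 also act in alpha and delta cells, and Hnf4a is mutated in an inherited diabetes of young adults.

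The islet labels were checked first against the defining markers of 9 cell types. On each of the 8 arrays all 6 beta cell markers, among them both insulin genes, all 5 alpha cell markers and all 7 acinar markers were well above background. The log2 signal summed over the acinar markers ranged from 9.77 to 11.24 on the control arrays and from 9.04 to 10.55 on the βFbln5KO arrays, and was brightest on control 3 and 4 and βFbln5KO 4. Over all 9 lists, which also cover delta, PP, ductal, endothelial, macrophage and mesenchymal cells, 0 markers passed an unadjusted limma p under 0.05, and 1 marker, Sox9 of duct cells, was not well above background on every array. Each genotype filled 1 of the 2 rows of arrays on the slide, so that an effect of the row and one of the genotype cannot be told apart. Fbln5 itself had log2 signals of −1.70, −1.32, −2.05 and −1.83 on the control arrays and of −2.74, −2.40, −2.38 and −1.37 on the arrays labelled βFbln5KO. The array labelled βFbln5KO replicate 4 lay within the control range, and the other 3 lay below every control array (log2 fold change −0.50, SE 0.286, limma adjusted p = 0.342). The values of the factors without that array are given together after the single factors.

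The promoters of Ins1 and Iapp, which encode insulin 1 and amylin, show the sites through which these factors are known to act, and the promoter of Pdx1 is shown beside them as that of a factor itself under control of the network. Each run is the 250 bases before the RefSeq start of transcription in GRCm38.p6, read 5′ to 3′ on the plus strand of the chromosome, with the A box core TAAT (on either strand) and the E box CANNTG in capitals.

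Ins1, chr19:52264047-52264296: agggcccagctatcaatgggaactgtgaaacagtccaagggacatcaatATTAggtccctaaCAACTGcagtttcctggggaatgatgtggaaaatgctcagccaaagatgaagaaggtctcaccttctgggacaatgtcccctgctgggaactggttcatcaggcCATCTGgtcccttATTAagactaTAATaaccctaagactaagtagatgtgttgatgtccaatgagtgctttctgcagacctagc

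Iapp, chr6:142298175-142298424: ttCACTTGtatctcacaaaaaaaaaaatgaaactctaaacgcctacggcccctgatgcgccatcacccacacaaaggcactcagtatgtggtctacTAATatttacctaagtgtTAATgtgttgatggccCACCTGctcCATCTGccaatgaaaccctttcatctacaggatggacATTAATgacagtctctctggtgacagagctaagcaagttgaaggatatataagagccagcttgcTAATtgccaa

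Pdx1, chr5:147269847-147270096: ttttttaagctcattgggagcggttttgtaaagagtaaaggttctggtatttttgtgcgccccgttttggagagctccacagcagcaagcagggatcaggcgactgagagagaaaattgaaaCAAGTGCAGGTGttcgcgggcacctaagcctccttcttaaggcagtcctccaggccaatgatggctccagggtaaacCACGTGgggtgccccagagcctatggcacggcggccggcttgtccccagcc

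The Ins1 window holds 3 A box cores, beginning 201, 71 and 61 bases before the start, and 2 E boxes, beginning 188 and 84 bases before it. Iapp has 5 A box cores, of which 1 pair overlaps, and 3 E boxes. In the Pdx1 window there are 0 A box cores and 3 E boxes, of which 1 pair abuts. These letters are common: 54.9% of all 32851 promoter windows of this length hold an A box core, 66.2% an E box and 38.3% both. Of the 12 promoter entries of 8 of the factors, 8 hold an A box core, 8 an E box and 6 both, and of the 14 entries of 13 target genes 8, 8 and 6 do. Mafa and Ins2 were not in the promoter table used here.

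None of the 9 factors passed the test between the genotypes, and all 9 were slightly lower on average in βFbln5KO islets. Signals are given as log2 of the processed signal minus each array's 75th percentile, so that 0 is the level below which 75% of the spots of that array lie, and each gene is described by its brightest probe. At an adjusted p under 0.05 in limma 0 of the 9 were called, and 0 were called at an unadjusted p under 0.05. Over all 22911 genes 0.0131% were called at the adjusted threshold, and 16.8% were higher and 2.68% lower at the unadjusted one. All 9 factors were well above background on every array, like 13650 genes in all, of which 1.01% were higher and 3.08% lower in βFbln5KO islets at an unadjusted p under 0.05. The log2 fold changes of the factors, βFbln5KO minus control, lay between −0.13 and −0.02 with a median of −0.049, beside a median of −0.0082 over those 13650 genes, of which 53.6% were also below 0. The widest 95% confidence interval of a factor, that of Mafa, ran from −0.34 to 0.21. The RNA is of whole islets, in which fewer cells of a type and less RNA per cell cannot be told apart.

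**Figure D1:**
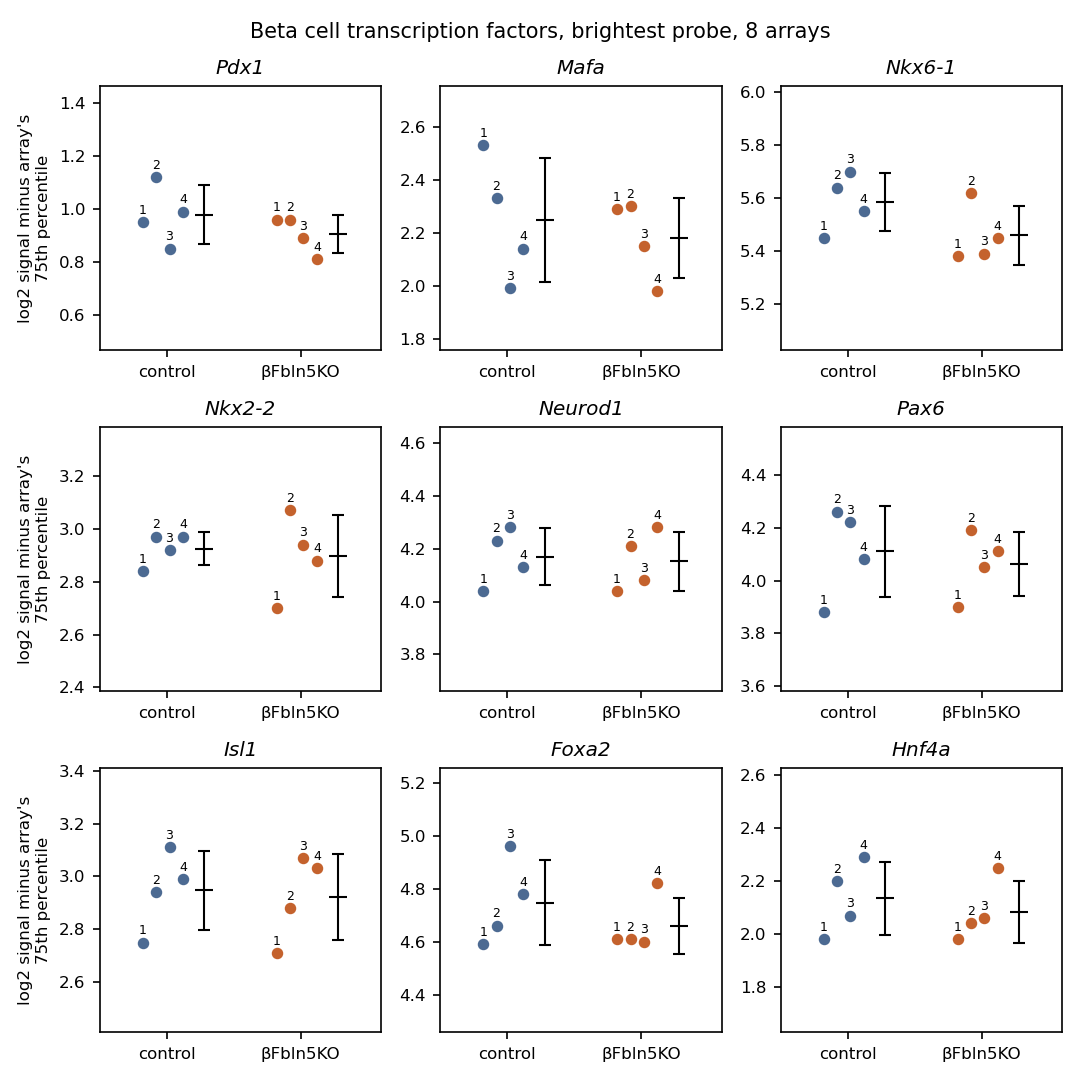
Log2 signal minus the array's 75th percentile (vertical axis, spanning the same range of 1 in each panel) of the brightest probe of the 9 factors on the control arrays (blue) and βFbln5KO arrays (orange), numbered by replicate, with the mean ± SD of each group (n = 4). The groups overlap for every factor.

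Pdx1, a homeodomain factor without which no pancreas forms, lies on chromosome 5 of GRCm38.p6 from 147270097 to 147275848 and is measured by probe A_52_P31510. Its log2 signal was 0.95, 1.12, 0.85 and 0.99 on the control arrays and 0.96, 0.96, 0.89 and 0.81 on the βFbln5KO arrays, or 0.98 ± 0.11 and 0.90 ± 0.071 (SD, n = 4 each). Only βFbln5KO 4 lay below every control array. The log2 fold change of −0.07 (SE 0.0665, limma adjusted p = 0.597) has a 95% interval that allows a change between −14.4% and 5.6%.

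Mafa, the leucine zipper factor of mature beta cells, lies on chromosome 15 from 75745501 to 75748321. Its probe A_55_P2155727 read 2.53, 2.33, 1.99 and 2.14 in control and 2.29, 2.30, 2.15 and 1.98 in βFbln5KO islets (2.25 ± 0.23 and 2.18 ± 0.15). It had the largest standard error of the factors, with control 1 the highest and βFbln5KO 4 the lowest. The difference of −0.06 (SE 0.12, adjusted p = 0.824) was within that spread, and its interval from −20.8% to 15.5% is the widest of the 9. Its lowest value was on βFbln5KO 4 and its next lowest on control 3, which are both among the 3 arrays with the brightest acinar markers, whose part in it was not tested.

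Neurod1, the basic helix-loop-helix factor of the insulin E box, lies on chromosome 2 from 79452637 to 79456636. Probe A_55_P2908538 read 4.04, 4.23, 4.28 and 4.13 in control and 4.04, 4.21, 4.08 and 4.28 in βFbln5KO islets. The lowest and the highest reading are the same in both groups, and the log2 fold change was −0.02 (SE 0.076, 95% interval −0.19 to 0.15, adjusted p = 0.924), the smallest of the 9 together with that of Isl1. Of the 13650 detected genes 83.2% had a larger change than Neurod1 in either direction.

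Nkx6-1, a homeodomain factor that beta cells need to keep their identity, lies on chromosome 5 from 101659184 to 101664711. Its probe A_55_P1953646 read 5.45, 5.64, 5.70 and 5.55 in control and 5.38, 5.62, 5.39 and 5.45 in βFbln5KO islets (5.59 ± 0.11 and 5.46 ± 0.11). βFbln5KO 1 and 3 were below every control array, and βFbln5KO 2 was within the control range. At −0.13 on the log2 scale (SE 0.0808, limma adjusted p = 0.41) it had the largest difference of the 9 factors, and 25% of the detected genes had a larger one. Its interval ran from −19.3% to 4.1%.

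Nkx2-2, which holds back alpha cell genes in beta cells, lies on chromosome 2 from 147176485 to 147195434 and has 2 probes. The brighter, A_51_P197718, read 2.84, 2.97, 2.92 and 2.97 in control and 2.70, 3.07, 2.94 and 2.88 in βFbln5KO islets. Both the lowest and the highest value were βFbln5KO arrays, and the mean difference was −0.03 (SE 0.0771, adjusted p = 0.879). The other probe, A_55_P1985905, had a difference of 0.03 (SE 0.12, adjusted p = 0.928), the only one above 0 among the 15 probes of the factors.

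Pax6, a paired-box factor of all islet hormone cells, lies on chromosome 2 from 105668896 to 105698410 and has 4 probes. The brightest, A_51_P489935, read 3.88, 4.26, 4.22 and 4.08 in control and 3.90, 4.19, 4.05 and 4.11 in βFbln5KO islets, a difference of −0.05 (SE 0.0968, adjusted p = 0.85), and probe A_52_P565559 gave −0.07 (SE 0.0819, adjusted p = 0.712). The dimmer pair gave larger values. Probe A_55_P2719489, which carries the accession of another transcript of the gene, read −0.34, −0.71, −0.38 and −0.55 in control and −1.04, −0.27, −0.91 and −0.98 in βFbln5KO islets, where 3 arrays were below every control array and βFbln5KO 2 was above them all (−0.31, SE 0.173, adjusted p = 0.335). The dimmest, A_52_P469306, read −2.11, −2.54, −2.53 and −2.28 in control and −2.98, −2.60, −2.81 and −2.77 in βFbln5KO islets, without overlap. Its log2 fold change was −0.42 (SE 0.149), with an unadjusted p of 0.0199 and an adjusted p of 0.107 in limma. The exact two-sided permutation test gave p = 0.029, the smallest that 4 against 4 arrays allow, which groups without overlap always give.

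Isl1, a LIM-homeodomain factor that works with the cofactor Ldb1, lies on chromosome 13 from 116298270 to 116309688 and has 2 probes that read differently. The brighter, A_52_P337246, read 2.75, 2.94, 3.11 and 2.99 in control and 2.71, 2.88, 3.07 and 3.03 in βFbln5KO islets, a difference of −0.02 (SE 0.0992, adjusted p = 0.927). The other, A_66_P112935, read 2.31, 2.36, 2.43 and 2.40 in control and 2.03, 2.13, 2.40 and 2.12 in βFbln5KO islets. Of those βFbln5KO arrays 3 were below every control array, while βFbln5KO 3 was within their range (−0.20, SE 0.0773, unadjusted p = 0.0286, adjusted p = 0.138).

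Foxa2, a forkhead factor that opens chromatin for others, lies on chromosome 2 from 148042877 to 148046969. Probe A_55_P2134236 read 4.59, 4.66, 4.96 and 4.78 in control and 4.61, 4.61, 4.60 and 4.82 in βFbln5KO islets. It was within 0.01 on βFbln5KO 1 to 3 and higher on βFbln5KO 4, and the difference was −0.09 (SE 0.0915, 95% interval −0.30 to 0.12, adjusted p = 0.648). Its 3 highest values were on control 3, βFbln5KO 4 and control 4, the arrays with the brightest acinar markers, whose part in it was not tested.

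Hnf4a, a nuclear receptor of liver, gut and islets, lies on chromosome 2 from 163506811 to 163572907. Probe A_55_P1959633 read 1.98, 2.20, 2.07 and 2.29 in control and 1.98, 2.04, 2.06 and 2.25 in βFbln5KO islets, a difference of −0.05 (SE 0.0826, adjusted p = 0.802). The ranges of the groups nearly coincide. Its other probe, A_52_P69656, was not well above background on any array and gives no fold.

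**Figure D2:**
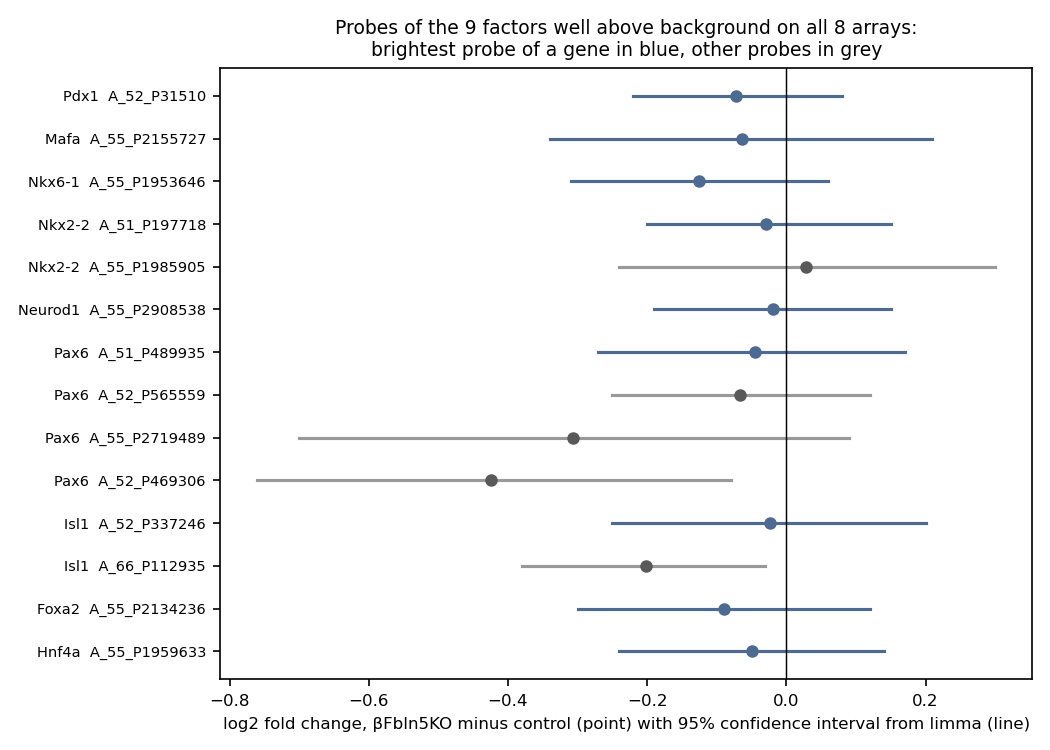
Log2 fold change, βFbln5KO minus control (horizontal axis), with its 95% confidence interval from limma for the 14 probes of the 9 factors that were well above background on all 8 arrays, with the brightest probe of each gene in blue and others in grey. The blue intervals all include 0, and those of the dimmest Pax6 probe (−0.76 to −0.08) and of the second Isl1 probe (−0.38 to −0.03) do not.

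Of the 15 probes 14 were detected on every array, and 2 of them, the dimmest of Pax6 and the second of Isl1, were lower at an unadjusted p under 0.05, beside 5.42% of all 26612 probes detected on all arrays. At the adjusted threshold 0 were called. The 5 dimmer detected probes were each set against the brightest probe of their gene within the same array. For the dimmest Pax6 probe this difference ran from −6.80 to −5.99 in control islets and, in βFbln5KO islets, from −6.88 to −6.79, and moved by −0.38 (exact two-sided permutation test, p = 0.057). For the second Isl1 probe it moved by −0.18 (exact p = 0.086), and the exact p of the other 3 pairs lay between 0.34 and 0.97. The probes of a gene were thus not shown to move apart.

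The spread of the factors between arrays was like that of other genes. Their standard errors had a median of 0.083, beside 0.09 over the detected genes, and from 23.6% (Pdx1) to 67.5% (Mafa) of detected genes had a smaller one. Read along the arrays, the median of the 9 factors relative to their control means was −0.14, 0.06, 0.11 and 0.01 on the control arrays and −0.15, 0.03, −0.09 and 0.00 on the βFbln5KO arrays. The lowest arrays were thus 1 of each genotype, control 1 and βFbln5KO 1. Without the array labelled βFbln5KO replicate 4, in which Fbln5 was not low, again 0 of the 9 were called (smallest adjusted p = 0.428). Their log2 fold changes were then −0.0413 for Pdx1, 0.00282 for Mafa, −0.0633 for Neurod1, −0.123 for Nkx6-1, −0.0236 for Nkx2-2, −0.0607 for Pax6, −0.0616 for Isl1, −0.142 for Foxa2 and −0.106 for Hnf4a. Mafa thus changed its sign, Pdx1 moved nearer to 0, and Neurod1, Isl1, Foxa2 and Hnf4a moved further below 0 by over 1.5 times.

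**Figure D3:**
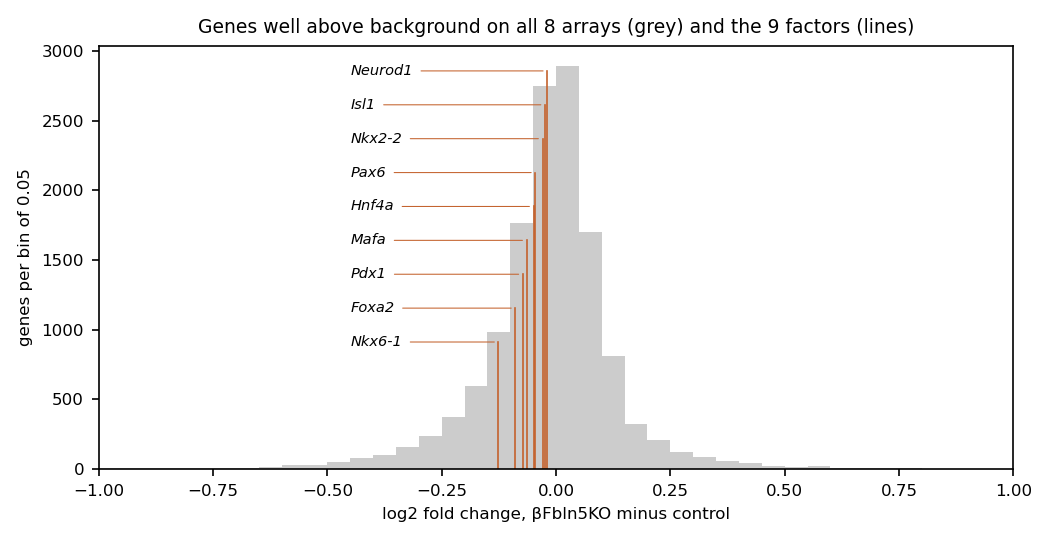
Number of genes (vertical axis) per 0.05 of log2 fold change, βFbln5KO minus control (horizontal axis, from −1 to 1), among the 13650 genes detected on every array, with the 9 factors as orange lines whose height has no meaning. The factors lie between −0.13 and −0.02, within the bulk of the genes.

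The genes whose pattern over the 8 arrays was most like that of each factor, by Pearson's r among 13551 genes, were Gm6116 for Pdx1 (r = 0.974), Micu3 for Mafa (0.979), Hypk for Nkx6-1 (0.97), Atp9b for Nkx2-2 (0.978), Ctcf for Neurod1 (0.98), Ccdc113 for Pax6 (0.982), Prpf31 for Isl1 (0.993), Clu for Foxa2 (0.992) and Klhl20 for Hnf4a (0.945). Each is the best of that many genes over 8 arrays that share 1 slide, and is given as a description. No factor was the closest match of another.

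The target genes of the network did not pass the test either. The list holds 18 genes taken as targets of these factors, most of them of insulin production and secretion, and all well above background on every array. It was not divided by whether a factor raises or lowers a gene. At an unadjusted p under 0.05 in limma 0 of 18 were called in either direction, and 12 had a log2 fold change below 0, with a median of −0.074 and a range from −0.23 to 0.30. Ins1 read 8.24, 8.11, 8.46 and 8.23 in control and 8.09, 8.16, 8.14 and 8.05 in βFbln5KO islets (−0.15, SE 0.111, adjusted p = 0.493). Ins2 read 8.82, 8.82, 9.13 and 9.0 in control and 8.67, 8.86, 8.76 and 8.76 in βFbln5KO islets (−0.18, SE 0.128, adjusted p = 0.464). βFbln5KO 2 lay within the control range for both genes, and βFbln5KO 3 for Ins1.

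For 3 of the targets every βFbln5KO array was below every control array, which was the case for 2.07% of the 13650 detected genes. They are Iapp, Slc30a8, the zinc transporter of insulin granules, and Abcc8, the sulfonylurea receptor of the beta cell's potassium channel, and were named after their values were seen. Iapp read 7.17, 7.17, 7.30 and 7.14 in control and 7.07, 7.13, 6.99 and 7.09 in βFbln5KO islets. Slc30a8 read 6.81, 6.78, 6.93 and 6.79 in control and 6.74, 6.77, 6.72 and 6.64 in βFbln5KO islets. Abcc8 read 7.27, 7.27, 7.31 and 7.34 in control and 7.09, 7.22, 7.23 and 7.13 in βFbln5KO islets. The differences were small, at −0.13, −0.11 and −0.13, with SE of 0.0799, 0.0745 and 0.0785. Their unadjusted p in limma was 0.15, 0.17 and 0.132 and their adjusted p 0.4, 0.433 and 0.371, while the exact two-sided permutation test gave the smallest p it allows, 0.029, for each. The methods' t-test gave an unadjusted p of 0.0347, 0.0486 and 0.0149, and adjusted values of 0.166, 0.21 and 0.0909.

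The smallest limma p among the targets belonged to Rgs16, a regulator of G protein signalling, and to Kcnj11, the pore of the potassium channel. Rgs16 read 2.85, 3.06, 2.85 and 3.48 in control and 3.53, 3.10, 3.50 and 3.29 in βFbln5KO islets (0.30, SE 0.154, adjusted p = 0.293). Kcnj11 read 0.30, 0.21, 0.18 and 0.09 in control and 0.22, −0.02, 0.03 and 0.01 in βFbln5KO islets (−0.13, SE 0.0717, adjusted p = 0.304), and its dimmer probe gave −0.29 without overlap between the groups (unadjusted p = 0.0386, adjusted p = 0.169).

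Among the 12 coregulators that work with these factors, such as Ldb1 with Isl1 and Tcf3 with Neurod1, 0 were called at an unadjusted p under 0.05. Their median log2 fold change was −0.039. For Dnmt3a, a DNA methyltransferase, the values were 3.17, 3.18, 3.26 and 3.35 in control and 2.82, 3.25, 3.12 and 3.10 in βFbln5KO islets (−0.17, SE 0.0898, adjusted p = 0.313). Ncoa6, a coactivator named after its values were seen, had a log2 fold change of −0.03 by its brightest probe (limma unadjusted p = 0.701), while a dimmer probe gave −0.40 without overlap (unadjusted p = 0.00256, adjusted p = 0.0728). Of all 26612 probes detected on every array 5.42% were lower at an unadjusted p under 0.05. The dimmer probes of the 3 lists did not all go the same way. That of Foxo1, also named after its values were seen, was higher (0.11, limma unadjusted p = 0.041, adjusted p = 0.177).

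**Figure D4:**
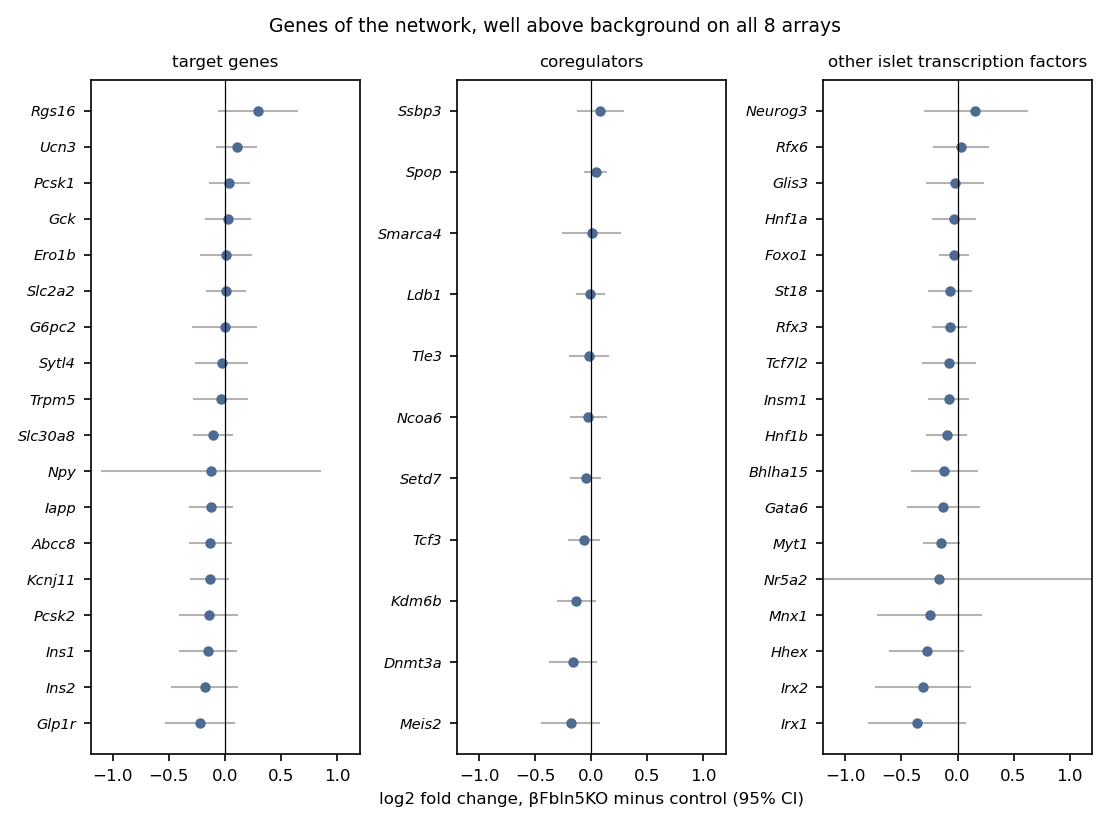
Log2 fold change, βFbln5KO minus control (horizontal axis), with its 95% confidence interval from limma for 18 target genes, 11 coregulators and 18 other islet transcription factors, each by the brightest probe of the gene. The genes shown are those well above background on every array whose values are reported here. Every interval shown includes 0, and the interval of Nr5a2 runs past both ends of the axis.

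Of 27 other islet transcription factors, 20 were well above background on every array, and 0 of the 27 were called at an adjusted p under 0.05. At the unadjusted threshold 1 was higher, 2 were lower and 24 did not pass. Over all 22911 genes 16.8% were higher and 2.68% lower at that threshold, and over the 13650 detected genes 1.01% and 3.08%. Onecut1, a factor of the developing and exocrine pancreas, was well above background on all 4 control arrays but on 1 βFbln5KO array, so that no fold is given. It was 1 of the 2 lower genes (limma unadjusted p = 0.022, adjusted p = 0.115), and did not pass with a common floor on dim signals or without control 3, βFbln5KO 1 or βFbln5KO 2. Pou3f4 was well above background on 1 βFbln5KO array alone, had 1 value marked as an outlier and left out, and gives no fold.

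Irx1 and Irx2, a pair of alpha cell factors, were both lowest on βFbln5KO 1 and 2. Irx1 lay between 1.19 and 1.36 in control and read 0.43, 0.72, 1.47 and 1.00 in βFbln5KO islets (−0.36, SE 0.19, adjusted p = 0.301). Irx2 lay between 0.52 and 0.67 in control and read −0.08, −0.04, 0.84 and 0.34 in βFbln5KO islets (−0.31, SE 0.184, adjusted p = 0.361). For both genes βFbln5KO 3 was above every control array, so that their groups overlapped, and they were singled out after their values were seen. Without βFbln5KO 3, the array that ran against the others, the log2 fold change was −0.55 for Irx1 and −0.50 for Irx2, which that omission itself makes larger. Neither gene passed an unadjusted p under 0.05 in limma when any other array was left out. With all 8 arrays Irx1 passed it after normexp background correction (−0.37, limma unadjusted p = 0.0375, adjusted p = 0.754). It also passed with the replicate block (−0.36, limma unadjusted p = 0.0374, adjusted p = 0.219). The summed signal of the 5 alpha cell markers, Irx2 among them, ran from 8.16 to 8.34 in control islets and, in βFbln5KO islets, from 8.04 to 8.19.

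**Figure D5:**
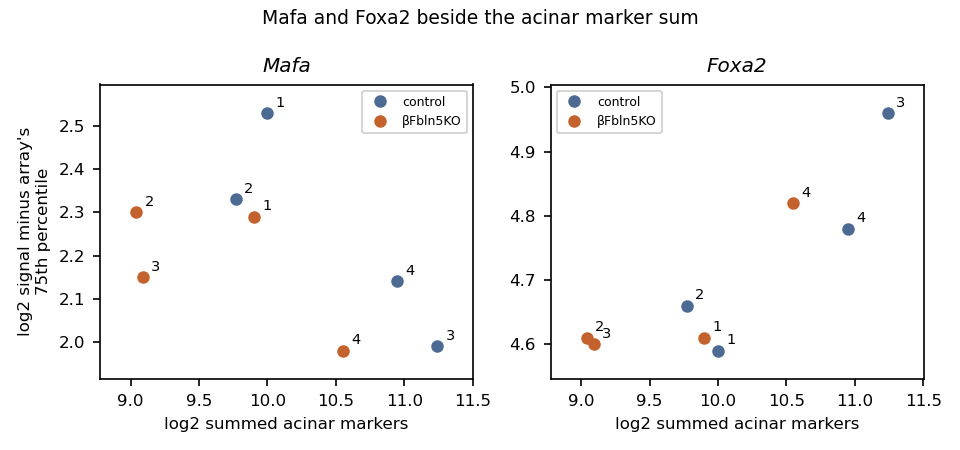
Log2 signal of Mafa (left) and of Foxa2 (right) on the vertical axes against the log2 signal summed over 7 acinar markers (horizontal axes) for the 4 control arrays (blue) and 4 βFbln5KO arrays (orange), numbered by replicate. The 3 arrays with the brightest acinar markers are low for Mafa and high for Foxa2, and both genes were chosen for display after their values were seen.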

How the data were processed

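Islet RNA of 4 control and 4 βFbln5KO extractions was labelled with Cy3 and hybridised to 1 slide of 8 one-colour Agilent mouse arrays. Per the file headers and labels, the authors used Agilent Feature Extraction 11.0.1.1, and the deposited processed signal is an intensity after background subtraction, without normalization between arrays. A series-wide table by the authors holds 35553 probes, each deposited intensity divided by its array's 75th percentile, used here only as an alternative. For 59305 spots that are no controls, log2 of the signal was taken and the 75th percentile of the array (709 to 1055) subtracted. Outlier-marked values (0.356%) were left out, no spot was saturated (0), and spots of 1 probe were averaged, leaving 56605 probes, of which 32994 were named through RefSeq accessions.

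All 8 arrays entered limma 3.58.1 (lmFit, eBayes with trend) under R 4.3.3. P-values were adjusted over every probe by Benjamini and Hochberg, and 0.05 was the threshold. From 52.6% to 58.8% of spots were well above background per array, and the number of arrays limits the precision. A gene was represented by its brightest probe, and different probes' signals were not set against each other as levels. Named were the 9 factors with every probe, genes of the 3 lists with an unadjusted p under 0.05 that were well above background on at least 4 arrays, the 2 genes of each list with the smallest p, the most alike gene of each factor, and Fbln5. The factors and lists were chosen with earlier results of these data known. Extractions are labelled as biological replicates. Python 3.11.15 with matplotlib 3.10.9 drew the figures. The alternatives were normexp (offset 50), quantile normalization, only probes detected on 4 or more arrays, a common floor, eBayes without trend, array weights, outliers kept, the methods' t-test, the mean over the probes of a gene, the deposited table, the replicate block, and each array left out. Single values of a few genes of the lists are not reported here, though they count in the lists.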

Additional observations from a re-analysis of the deposited data

Results flagged for a closer look

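Of the 60 groups of 4 arrays examined, over every probe of the factors and the brightest probe of Fbln5 and of 14 other genes of the lists, 4 held an array far from the others, where the gap to the nearest array exceeded 0.829 of the group's range. Chance alone gives about 1 such group in 20. Foxa2 on βFbln5KO 4 was 4.82, which was 0.21 above the next array of that group, and 0.952 of its range. Probe A_55_P2719489 of Pax6 on βFbln5KO 2 was −0.27, which was 0.65 above the next. Probe A_52_P69656 of Hnf4a on βFbln5KO 4 was −6.88, at a distance of 0.4 from the nearest, and was not well above background on any array. Iapp on control 3 was 7.3, which was 0.13 above the next control array.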

How the results depend on the processing

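Over 19 alternatives 0 of the 9 factors were called at an adjusted p under 0.05, and their median log2 fold change lay between −0.0908 and −0.0147. At the unadjusted threshold the count of lower factors was 0 but for 1 with the mean of the probes of a gene, which was Pax6 (−0.21, adjusted p = 0.169). Of 171 single values 157 kept their sign and 14 reversed, with 0 called. With normexp Nkx2-2 became 0.00743 and Hnf4a 0.029. Leaving out 1 array at a time gave ranges of −0.15 to 0.0291 for Mafa, −0.0633 to 0.0176 for Neurod1, −0.123 to 0.00869 for Pax6, −0.0908 to 0.0474 for Isl1, −0.0868 to 0.0361 for Nkx2-2 and −0.106 to 0.00275 for Hnf4a; the cause was not tested. The dimmest Pax6 probe stayed between −0.488 and −0.272 (smallest adjusted p = 0.0743) and the second Isl1 probe between −0.278 and −0.155 (0.143).

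Among other islet transcription factors, 0 were higher at an unadjusted p with normexp, quantile normalization, the filter on dim probes, the common floor, outliers kept, the deposited table and the replicate block. The lower ones were 1 with the common floor, 4 with array weights and 1 to 5 with an array left out. The adjusted count was 1 with array weights (Pou3f4) and 0 to 2 with an array left out, where the 2, without βFbln5KO replicate 4, included Pou3f4. Over the whole table, 5 probes were higher and 1 lower at the adjusted threshold as reported, 11206 and 338 without that array, 10709 and 489 with array weights, and 6184 and 394 with all arrays and eBayes without trend. Lower coregulators were 1 with the mean of probes, 2 with the replicate block and 0 to 2 with an array left out. Target genes called higher were 1 with normexp and 0 to 1 with an array left out, and those called lower were 1 with the filter, the mean of probes and the deposited table, 3 with the methods' t-test and 0 to 1 with an array left out. Correlations of same-numbered deviations were 0.2, 0.3, −0.22 and −0.022. The partner with the highest correlation bore the same number for replicates 1 and 2 and another number for replicates 3 and 4. These values cannot show whether the replicate numbers pair the arrays. With the replicate block 0 of the 9 factors were called (smallest adjusted p = 0.357). Signal over background limits Hnf4a's second probe and 7 of the other transcription factors, which were dim on at least 1 array.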
